A study of Mus musculus with 6 samples.

Results

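The genes described here are 10 transcription factor genes of the immediate early class: Fos, Fosb, Fosl1, Fosl2, Jun, Junb, Jund, Atf3, Egr1 and Myc. They were taken by symbol from the deposited tables, where all 10 of them were found among 16266 genes. Of the 10, 9 passed the filter on low counts, which kept 12219 genes in all, and Fosb did not. The samples were bone marrow-derived macrophages from mice, grown out of marrow and then exposed to lipopolysaccharide (LPS, a bacterial cell wall component) for 24 h. Sequencing covered 3 libraries from wild-type (WT) cells and 3 from cells labelled knockout (KO), which the study's design text gives as Capns1 knockout. The title describes the deletion as myeloid-specific. How deletion was driven and how old the mice were is not given in the sources used here. Nothing says that replicates were separate animals or cultures, so p-values measure only the spread between these libraries. All libraries were taken after LPS, so induction of these genes by LPS was not measured.

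The AP-1 factors are pairs of basic leucine zipper proteins that bind DNA as dimers. Jun proteins (Jun, Junb, Jund) can pair with each other or with Fos proteins (Fos, Fosb, Fosl1, Fosl2), whereas Fos proteins need a partner such as a Jun protein. Atf3 belongs to the same superfamily and in macrophages is known as a brake on LPS-induced cytokine genes. Egr1 is a zinc finger factor, and Myc pairs with Max to drive genes of growth, nucleotide synthesis and ribosome production. In macrophages most of these genes are switched on within minutes of a stimulus through mitogen-activated protein (MAP) kinases, and their messages decay fast. Calpains, the proteases whose small subunit is Capns1, are known to cut the Fos and Jun proteins. The data here are of RNA and do not bear on that cleavage.

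Total counts per library ran from 32631163 to 40913819. Capns1 checked the labels, because the genotype field gives a different Capns number for each KO sample. Counts of Capns1 were 17055, 18934 and 21331 in WT and 335, 370 and 298 in KO replicates 1, 2 and 3. Its log2 fold change, KO against WT throughout, was -5.73 ± 0.12 SE (edgeR quasi-likelihood test, adjusted p = 1.77e-10), so each of the KO libraries carried the loss. On the second principal component of log2 CPM (counts scaled to library size; 15.9% of variance), WT replicate 3 (-23.2) and KO replicate 2 (25.5) stood apart from the rest of their groups (8.21 and 12.4 in WT, -12.6 and -10.4 in KO). Many of the results that change without them are given both ways. Of 9 macrophage markers, 8 were not called, including Adgre1, Csf1r, Cd68 and Lyz2, whose means were between 795 and 28413 CPM. The share of these markers called was 11.1%, where 14.6% of all tested genes were called. Csf1r was lower in every KO library than in every WT library (-0.35, adjusted p = 0.0600) and was called lower in 5 of 18 alternative settings. When both libraries that stood apart were left out, 3 of the 9 were called lower, Lyz2 among them, and 0 higher. Over all tested genes, 12.3% were lower there and 13.7% higher. The marker Cd14, the LPS co-receptor, fell (-0.34, adjusted p = 0.0304; it was no longer called on removal of any 1 library but KO replicate 2). Markers of fibroblasts and marrow stroma were also present: 10 of 14 tested were higher in KO (8.44% of all tested genes were) and 0 were lower. Their summed level was 267 to 334 CPM in WT and 644 to 815 CPM in KO. Without both libraries that stood apart, 8 of the 15 tested there were higher, where 13.7% of all genes were. None of these stromal markers was at 0 in every library.

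RefSeq promoter sequences (GRCm38.p6) matched 7 of the 10 genes: Fos, Fosb, Fosl2, Jun, Junb, Jund and Atf3. Fosl1, Egr1 and Myc had no entry. Below are the last 120 bases before the start site of 4 of them, shown because they hold letters of the element through which CREB, ATF and AP-1 factors act on this family. Capitals mark TGACG (on either strand, the core of the cyclic AMP response element) or TGANNTCA.
Fos, chr12:85473770-85473889, plus strand: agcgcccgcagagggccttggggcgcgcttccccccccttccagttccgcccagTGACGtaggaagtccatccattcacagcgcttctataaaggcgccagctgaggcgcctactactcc
Jun, chr4:95052223-95052342, minus strand: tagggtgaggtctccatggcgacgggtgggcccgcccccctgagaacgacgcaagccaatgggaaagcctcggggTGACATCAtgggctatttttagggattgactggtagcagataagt
Junb, chr8:84978749-84978868, minus strand: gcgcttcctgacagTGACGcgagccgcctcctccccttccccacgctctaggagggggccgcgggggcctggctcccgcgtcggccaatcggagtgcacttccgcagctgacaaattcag
Atf3, chr1:191183334-191183453, minus strand: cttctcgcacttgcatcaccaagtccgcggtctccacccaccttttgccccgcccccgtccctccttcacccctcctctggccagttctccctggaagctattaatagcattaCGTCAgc
Within 250 bases before the start, TGACG on either strand was present in Fos, Fosb, Junb and Atf3, against 17.8% of 32851 promoters of that length. Fos held it at 66 and again at 129 bases before the start. The 8 letters TGANNTCA, which overlap the full element TGACGTCA, occurred in Jun and Jund and in 11.9% of all promoters. The Jun match, TGACATCA, began 45 bases before the start. TGANTCA, TGACGTCA, the E-box CACGTG bound by Myc and Max, and the CArG box bound by serum response factor were in 0 of the 7 promoters (6.75, 1.55, 6.02 and 1.47% of all). The letters GCGNGGGCG, a form of the Egr site, were in Fosl2 and Fosb and in 4.7% of all promoters, and TATAAA, searched on the gene's strand, was in Fos and in 7.59%. These matches describe letters only. Bases further upstream were not searched, so a motif absent here may lie outside the window.

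Fosl1, Myc and Egr1 were higher in KO libraries, Fos was lower, and Jun, Junb, Jund, Fosl2 and Atf3 did not pass the test. In bulk RNA these changes cannot be assigned to a cell type. Thus 3 of the 9 tested genes were higher in KO, where 8.44% of all tested genes were, and 1 was lower, where 6.21% were. For 5 of the 9 (Fosl1, Myc, Egr1, Fos and Atf3) the groups stood fully apart, against 33.6% of all tested genes. These genes were picked with such results known, so the shares are a description. The median log2 fold change was 0.093 over the 9 and -0.011 over all tested genes.

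Levels per length, in FPKM (fragments per kilobase of gene, scaled to library size), differed widely within the family. In WT the order of means was Junb (120 ± 9.09, SD, n = 3), Jund (67.5 ± 13.1), Jun (42.1 ± 2.56), Atf3 (17.9 ± 1.43), Fos (16.3 ± 2.99), Fosl2 (6.59 ± 0.957), Myc (2.64 ± 0.696), Fosl1 (2.10 ± 0.183), Egr1 (1.73 ± 0.538) and Fosb (0.0372 ± 0.0463). Atf3 and Fos overlapped in their ranges in WT, as did Myc, Fosl1 and Egr1. In KO the order began with the same genes, Junb (135 ± 9.09), Jund (71.1 ± 14.1), Jun (38.9 ± 3.52), Atf3 (14.4 ± 1.54) and Fos (10.9 ± 2.48). Fosl1 (9.08 ± 0.499) then stood ahead of Fosl2 (7.16 ± 1.46), Myc (6.22 ± 0.637) and Egr1 (3.44 ± 0.642). In KO the ranges of Fos and Fosl1 overlapped, whereas in WT the lowest Fos value (12.9) was far above the highest Fosl1 value (2.24).

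**Figure D1:**
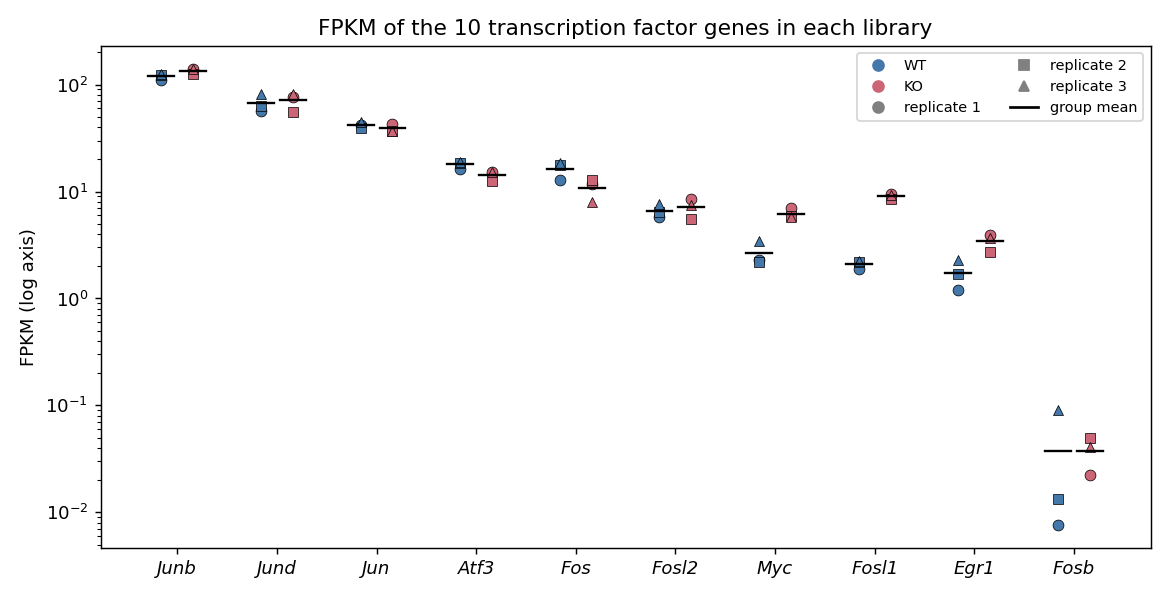
FPKM on a log axis for each of the 10 genes, ordered by WT mean, with WT libraries in blue, KO libraries in red, a marker shape per replicate and a bar at each group mean. Fosl1 moves from 1.89 to 2.24 FPKM in WT to 8.54 to 9.52 in KO, while the Jun genes at the left overlap between groups.

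Fosl1, which encodes the Fos-related protein FRA-1, lies on chromosome 19 at 5447698 to 5455938 (GRCm38). Its level in CPM (the count as a share of the library total) was 3.23, 3.71 and 3.81 in WT replicates 1 to 3 and 16.2, 14.6 and 15.7 in KO replicates 1 to 3. All KO libraries stood above all WT libraries, and the spread within groups was small (coefficient of variation 8.71% in WT and 5.49% in KO, the latter the lowest of the 9 tested genes). The log2 fold change was 2.09 ± 0.14 SE (95% interval 1.78 to 2.39; edgeR adjusted p = 4.35e-06), a 4.24-fold rise. A log2 fold change at least that high was found for 1.5% of tested genes. On the opposite strand GENCODE places Ccdc85b across part of Fosl1. Whether counting used the strand is not stated in the labels. Ccdc85b stood at 16.5 CPM in WT and 22.2 in KO (log2 fold change 0.40, adjusted p = 0.203).

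Fos, the founding member of its family, lies on chromosome 12 at 85473890 to 85477274. It stood at 27.2, 37.1 and 38.9 CPM in WT and 24.9, 26.9 and 17.0 CPM in KO. The highest KO value (26.87) was just under the lowest WT value (27.18), and KO replicate 3 was the lowest of the 6. The log2 fold change was -0.61 ± 0.19 SE (95% interval -1.01 to -0.20), with edgeR adjusted p = 0.0499, at the threshold. The call did not hold under 9 of 18 alternatives, among them RLE scaling (adjusted p = 0.0530), no scaling factor (0.0595), and leaving out WT replicate 2 (0.152), WT replicate 3 (0.0914), KO replicate 1 (0.0963) or KO replicate 3 (0.169). Without KO replicate 3 the log2 fold change was -0.41.

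Fosl2, which encodes FRA-2, had 40.5, 45.4 and 53.9 CPM in WT and 59.8, 39.5 and 52.8 in KO. The groups overlapped throughout, and the log2 fold change was 0.09 (95% interval -0.24 to 0.42; edgeR adjusted p = 0.748). Fosb was close to the counting floor, with 1, 2 and 14 counts in WT and 3, 7 and 5 in KO, where 3 counts, as many as an observed 0 leaves possible, equal 0.0733 to 0.0919 CPM. No fold change is given for it. Such limits cover counting error only.

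Within the Fos genes, the make-up per length differed between groups, while the sum overlapped. The summed FPKM of Fos, Fosb, Fosl1 and Fosl2 was 20.5, 26.2 and 28.4 in WT and 29.8, 26.9 and 24.7 in KO, and the groups overlapped (two-sided exact permutation test, p = 0.6, n = 3 each). Fosl1 made up 9.23, 8.31 and 7.88% of that sum in WT and 31.98, 31.7 and 37.1% in KO. Every KO share was above every WT share, and the means differed by 25.2 percentage points (8.47 ± 0.692% against 33.6 ± 3.05%, SD, n = 3 each; exact permutation p = 0.1, the smallest that 3 against 3 allows). Fos made up 62.8, 67.1 and 65.0% in WT and 39.6, 47.4 and 32.6% in KO, again without overlap (exact permutation p = 0.1, n = 3 each). The share of Fosl2 was 26.4% in both groups (SD 1.74 in WT and 5.01 in KO). The ratio of Fosl1 to Fos FPKM, which no scaling of libraries can move, was 0.147, 0.124 and 0.121 in WT and 0.808, 0.670 and 1.14 in KO. In KO replicate 3 Fosl1 thus had a higher FPKM than Fos.

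**Figure D2:**
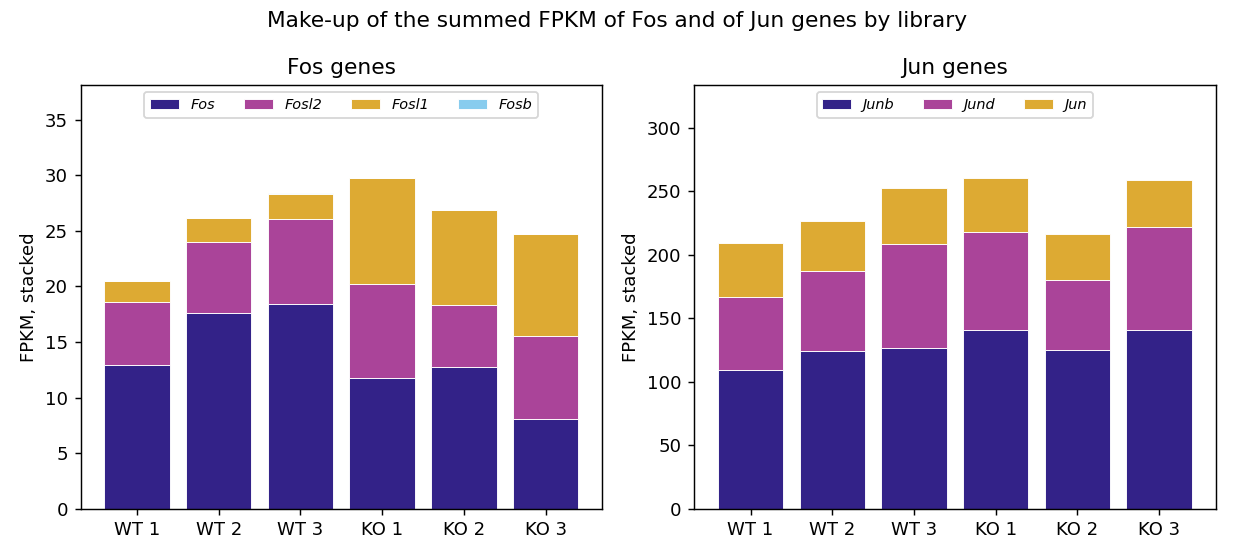
Stacked FPKM of the Fos genes (left) and of the Jun genes (right) in each of the 6 libraries, with both axes starting at 0. The Fosl1 block is 7.88 to 9.23% of the Fos stack in WT and 31.7 to 37.1% in KO, while stack heights of both families overlap between groups; Fosb is too low to be seen.

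The Jun genes, the partners that Fos proteins require, did not pass the test. Jun had 135, 126 and 142 CPM in WT and 137, 117 and 118 in KO (log2 fold change -0.14, 95% interval -0.37 to 0.09; edgeR adjusted p = 0.430). Junb, the most abundant of the 10 genes, had 201, 228 and 232 CPM in WT and 259, 230 and 259 in KO (0.15, interval -0.06 to 0.37; adjusted p = 0.351). Prdx2, which overlaps Junb on the opposite strand, was called higher, at 178 CPM in WT and 231 in KO (0.35, adjusted p = 0.0304), and its part in the Junb counts was not tested. Jund, often the constitutive member, had 165, 182 and 237 CPM in WT and 222, 158 and 233 in KO (0.05, interval -0.30 to 0.40; adjusted p = 0.893). For each of the Jun genes, KO and WT libraries overlapped. Their intervals leave room for changes of up to 1.32-fold upward (Jund) or to 0.776 of the WT level (Jun).

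The summed FPKM of the Jun genes was 209, 227 and 253 in WT and 261, 217 and 259 in KO (exact permutation p = 0.5, n = 3 each). The share of Jun in that sum was 20.2, 17.4 and 17.6% in WT and 16.5, 17.0 and 14.3% in KO, a difference of -2.52 percentage points. These shares did not overlap (exact permutation p = 0.1, n = 3 each, the smallest possible). Junb made up 52.3 ± 2.39% in WT and 55.3 ± 2.04% in KO (SD, n = 3; exact permutation p = 0.3). The ratio of summed Fos to summed Jun FPKM was 0.109 ± 0.00926 in WT and 0.111 ± 0.0145 in KO (SD, n = 3).

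Atf3 had 32.2, 36.4 and 37.6 CPM in WT and 30.1, 25.0 and 30.4 in KO. Every KO library was below every WT library, yet the log2 fold change of -0.34 ± 0.11 SE (95% interval -0.59 to -0.09) did not pass the test (edgeR adjusted p = 0.0708). The spread within each group was 7.97 and 10.7% of the mean.

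Egr1, on chromosome 18, had 3.69, 5.22 and 6.99 CPM in WT and 12.15, 8.36 and 11.2 in KO. The lowest KO value, in replicate 2, was 8.36 and the highest WT value, in replicate 3, was 6.99. The log2 fold change was 0.96 ± 0.22 SE (95% interval 0.47 to 1.45; edgeR adjusted p = 0.0140). Within WT it varied most of the 9 tested genes (coefficient of variation 31.2%). The adjusted p was 0.0520 without KO replicate 1 and 0.0526 without KO replicate 3. With limma-trend the adjusted p was 0.0737 on log2(FPKM + 1), where the log2 fold change was 0.71, and 0.0636 on log2(FPKM + 0.1), where it was 0.98.

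Myc, on chromosome 15 at 61985341 to 61990361, had 5.48, 5.27 and 8.26 CPM in WT and 16.7, 14.3 and 13.8 in KO. WT replicate 3 was high for its group, and still every KO library was above it. The log2 fold change was 1.21 ± 0.18 SE (95% interval 0.80 to 1.61; edgeR adjusted p = 0.00126), a 2.31-fold rise. Fosl1 and Myc were called with a rise of at least 2-fold, as were 4.62% of tested genes. Calls of Myc and Fosl1 held under all 18 alternatives (log2 fold change 1.00 to 1.46 for Myc and 1.70 to 2.16 for Fosl1).

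**Figure D3:**
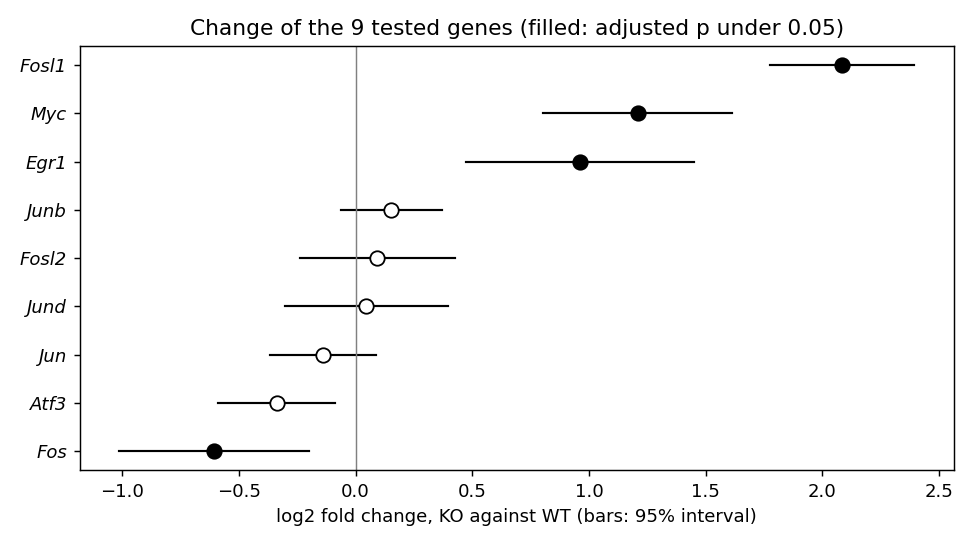
Log2 fold change (KO against WT) of the 9 tested genes with 95% intervals from edgeR; filled points have an adjusted p under 0.05. Fosl1, Myc and Egr1 lie to the right of 0 and Fos to the left, and the interval of Atf3 leaves out 0 although its adjusted p is 0.0708.

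Within groups, the genes shared a pattern over libraries. Among WT libraries all 9 tested genes had their highest CPM in replicate 3, which held for 35.6% of all tested genes, and 7 of 9 had their lowest in replicate 1 (29.5% of all). Among KO libraries 7 of 9 were lowest in replicate 2 (43.8% of all). WT replicate 3 and KO replicate 2 are the libraries that stood apart. Their part in these levels was not tested. With both left out, 5 of the 9 genes were called higher, against 13.7% of all tested genes: Fosl2 (0.35, adjusted p = 0.0196) and Jund (0.36, adjusted p = 0.00930) joined Fosl1 (2.16), Myc (1.46) and Egr1 (1.34). Fos was -0.66 there (adjusted p = 0.00756). There the remaining WT and KO libraries also differ on the second principal component, and the 2 differences cannot be told apart.

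Other immediate early genes, which share the fast induction by MAP kinases, moved in both directions. Of 35 tested, 7 rose and 7 fell, with a median log2 fold change of 0.014. This is 40% called, where 14.6% of all tested genes were. Like the other lists here, this one was chosen with earlier results of these data known, so its share is a description. Connective tissue growth factor Ccn2 averaged 13.3 ± 1.39 CPM in WT and 37.2 ± 5.25 in KO (SD, n = 3; change of 1.46 on the log2 scale, edgeR adjusted p = 3.39e-05). The prostaglandin synthase Ptgs2 went from 1.44 ± 0.487 to 5.90 ± 0.832 CPM (2.01, adjusted p = 3.97e-04), and Phlda1 from 3.22 ± 0.517 to 8.48 ± 1.32 (1.37, adjusted p = 6.01e-04). Hbegf, Plk3, Ccn1 and Klf10 rose as well. Stromal markers were higher in the same KO libraries, and their part in these rises was not tested. The falls were Plk2, Rgs2, Btg1, Zfp36l1, Btg2, Rgs1 and Klf6. Outside the naming rule, the Egr1 paralog Egr3 had 1.04, 0.379 and 0.489 CPM in WT and 2.73, 0.672 and 1.90 in KO and did not pass (1.45, adjusted p = 0.0882). Egr4, Nr4a3 and Arc were below the count filter. Without both libraries that stood apart, 10 rose and 9 fell, where 13.7 and 12.3% of all tested genes did.

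**Figure D4:**
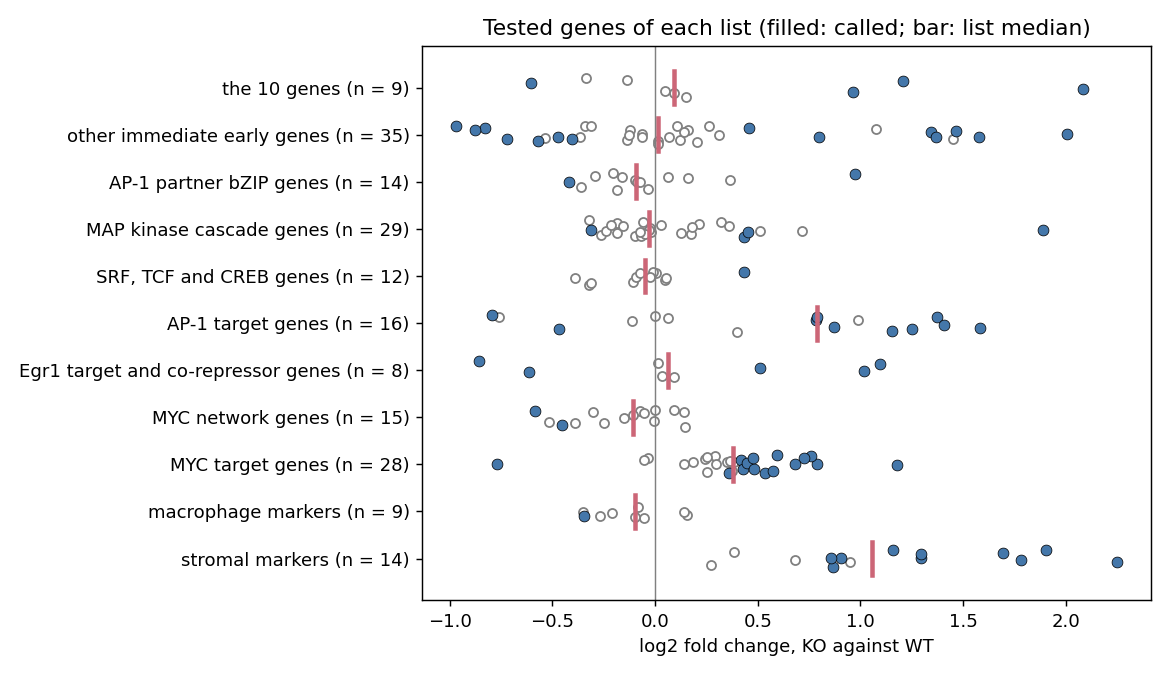
Log2 fold change (KO against WT) of every tested gene in each list, filled where the adjusted p is under 0.05, with a bar at the list median. AP-1 targets (median 0.79), MYC targets (0.38) and stromal markers (1.06) sit to the right of 0, and MAP kinase and SRF, TCF and CREB genes around it. The lists were chosen with earlier results of these data known.

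In the edgeR test of all 6 libraries, genes upstream of the family and basic leucine zipper partners were called about as often as genes in general, or less. Of 29 MAP kinase cascade genes, 3 rose and 1 fell (13.8%), with a median of -0.03. They were the p38-activated kinase Mapkapk3 (0.45, adjusted p = 0.0205), Map3k8, which links TLR4 to ERK (0.43, adjusted p = 0.0267), and Mapk12 (1.89, adjusted p = 0.0313), at 0.244 CPM in WT. Mapk3, which encodes ERK1, fell (-0.31, adjusted p = 0.0396), and its call was lost on removal of any 1 library. Without both libraries that stood apart, 6 of the cascade genes rose and 4 fell, against 13.7% called higher and 12.3% called lower over all genes. Of 12 SRF, TCF and CREB genes, Srf alone was called (0.43, edgeR adjusted p = 0.0494), with KO and WT libraries overlapping. Without both libraries that stood apart, 4 of the 12 were called higher and 0 lower. Of 14 other basic leucine zipper partners, the small Maf gene Maff rose (0.97, adjusted p = 0.0222) and the repressor Bach1 fell (-0.42, adjusted p = 0.0305). Removing 1 library ended these calls. Maff, Mapkapk3, Mapk12 and Srf were no longer called on removal of replicate 1 of either group, of WT replicate 2 or of KO replicate 3 (with adjusted p up to 0.0800, 0.0834, 0.134 and 0.185). Map3k8 lost its call on removal of WT replicate 1, WT replicate 3 or KO replicate 1 (up to 0.104), and Bach1 without any library but WT replicate 2 (up to 0.109).

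Of 16 known AP-1 target genes, 8 rose and 2 fell (median 0.79), where 8.44% of all tested genes rose and 6.21% fell. This list and the Egr1 and MYC lists below were chosen with earlier results of these data known, so their shares are a description. The cell cycle gene Ccnd1 averaged 36.7 ± 4.24 CPM in WT and 112 ± 9.29 in KO (SD, n = 3; change of 1.58 on the log2 scale, edgeR adjusted p = 7.82e-06). Osteopontin, Spp1, went from 271 ± 61.2 to 611 ± 7.28 CPM (1.16, adjusted p = 2.35e-04). Timp1, Lif, Plaur, Hmox1 and Ccl2 rose too, and Mmp12 and Vegfa fell. Without both libraries that stood apart, 9 rose and 3 fell (13.7 and 12.3% of all tested genes). On removal of WT replicates 1 or 2 or any 1 KO replicate, 1 was called lower. Stromal markers moved in the same libraries, for example Bgn (32.5 ± 5.57 CPM in WT and 158 ± 16.3 in KO, SD, n = 3; log2 fold change 2.25, adjusted p = 2.08e-06) and Col1a2 (1.16, adjusted p = 6.08e-04). Their part in the values of Fosl1, Egr1 and Myc, and of these targets, several of which fibroblasts also make, was not tested. In bulk RNA, more cells of a type and more RNA per cell cannot be told apart.

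Of 8 tested Egr1 targets and co-repressors, 3 rose and 2 fell (median 0.06), a share of 62.5% called against 14.6% of all tested genes. The prostaglandin E synthase Ptges rose from 41.5 ± 0.466 to 85.3 ± 9.72 CPM (SD, n = 3; log2 fold change 1.02, edgeR adjusted p = 1.51e-04), and the growth factor Pdgfa by 1.10 (adjusted p = 0.00389). Its sister gene Pdgfb moved the other way (-0.86, adjusted p = 0.00552). The co-repressor Nab2 rose. Without both libraries that stood apart, 5 rose and 2 fell, against 26% of all tested genes called. On removal of WT replicates 1 or 3 or KO replicates 2 or 3, 1 was called lower.

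Among MYC partners and regulators, 0 of 15 tested rose and 2 fell (edgeR, adjusted p under 0.05). This is 13.3% called, close to the 14.6% of all tested genes. The deubiquitinase Usp28 (-0.58, adjusted p = 0.0415) lost its call on removal of replicate 1 or 3 of either group (up to 0.151). The antagonist Mxi1 (-0.45, adjusted p = 0.0454) lost its call without any library but WT replicate 1 (up to 0.184). Neither gene was called without both libraries that stood apart. There 1 gene of the list rose and 2 others fell, where 13.7 and 12.3% of all tested genes did. Max, the obligate partner, was outside the naming rule and was not called (-0.30, adjusted p = 0.0677).

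Of 28 MYC target genes, 14 rose and 1 fell (median 0.38), where 8.44% of all tested genes rose and 6.21% fell. Spermidine synthase Srm averaged 15.2 ± 0.927 CPM in WT and 34.8 ± 3.48 in KO (SD, n = 3; change of 1.18 on the log2 scale, edgeR adjusted p = 9.25e-05), and the chaperonin Hspd1 from 55.3 ± 2.81 to 89.9 ± 3.78 (0.68, adjusted p = 8.89e-04). The transferrin receptor Tfrc fell from 211 ± 4.40 to 125 ± 12.7 CPM (-0.77, adjusted p = 3.75e-04). The other rises were Nop58, Odc1, Gnl3, Cad, Mybbp1a, Ldha, Nolc1, Nme1, Apex1, Npm1, Ddx21 and Bop1, genes of nucleolar, polyamine, nucleotide and glycolytic functions. Without WT replicate 1 the rises numbered 8, where 5.63% of all tested genes rose, and over the other alternatives 11 to 17. Tfrc was called lower under all 18 alternatives.

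The alternatives changed how often any gene was called, which the counts for these genes have to be read against. In either direction the share called over all tested genes was 14.6% with RLE scaling, 14.3% with no scaling factor, 15.8% with DESeq2, 14.5% with limma-voom and 11.5% with no filter. It was 8.25% with limma-trend on log2(FPKM + 1), 8.59% with a pseudocount of 0.1 and 13.2% with genes of at least 1 FPKM in 3 libraries. It was 20.7% with a replicate block, 16.3% with a gene length trend removed and 15.2% with a GC trend removed. On removal of WT replicates 1, 2 and 3 in turn it was 9.1, 9.84 and 13.7%, and of KO replicates 1, 2 and 3 it was 8.99, 14.1 and 9.22%. Egr1 lost its call in the first 2 limma-trend settings and on removal of KO replicates 1 or 3. It stayed called on removal of WT replicates 1 or 2 (adjusted p = 0.0459 and 0.0475). Fos lost its call in 9 settings. Among these the overall share was 14.6% with RLE scaling, 14.3% with no scaling factor, 13.7% without WT replicate 3 and 13.2% with the FPKM filter. In the others it was 8.25 to 9.84%.

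**Figure D5:**
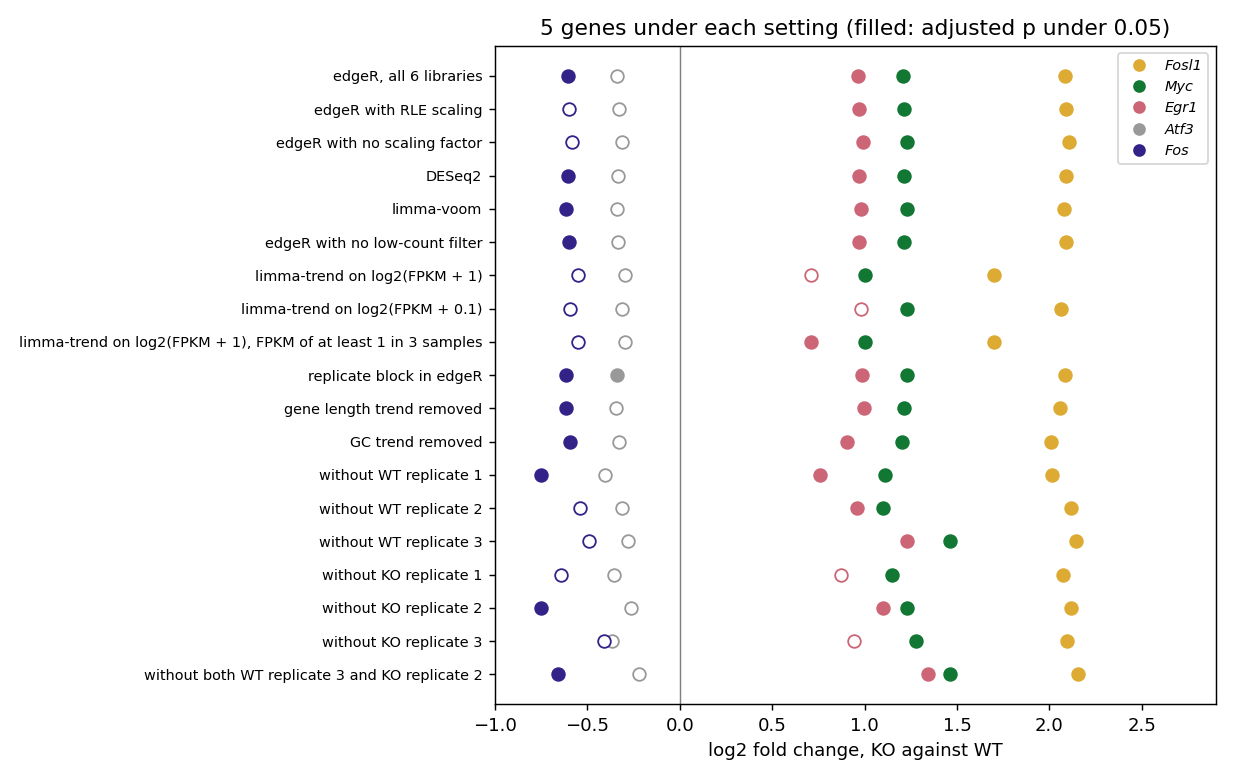
Log2 fold change (KO against WT) of Fosl1, Myc, Egr1, Atf3 and Fos in edgeR with all 6 libraries and under 18 alternatives, filled where the adjusted p is under 0.05. Fosl1 and Myc are filled in each row, Egr1 is open in 4 and Fos in 9, and no gene crosses 0.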

How the data were processed

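Per the labels' protocols, the 6 libraries were strand-specific and from total RNA. Tools named in the submitters' processing notes are HISAT2, HTSeq and fastp, with build mm10 and no versions. The authors deposited raw counts per gene and FPKM. In the files, FPKM equalled the count over a gene length and the column total to within 1% in 99.99% of entries that had 10 counts or more. Groups and replicate numbers came from the titles. The main test was edgeR's quasi-likelihood F test on the counts (version 4.0.16, R 4.3.3) after filterByExpr and TMM scaling. P-values were adjusted by Benjamini-Hochberg over all 12219 genes tested, and called means below 0.05 after adjustment. SE is the log2 fold change over the square root of F. Sums and shares of FPKM were compared by exact permutation. The procedure was tested on simulated counts. There, more calls than the nominal share fell on unchanged genes, and small changes were often missed. The simulation changed a far smaller share of genes than was called here, so its rates need not hold for these data. Calls near the threshold are to be read with caution. Alternatives used DESeq2 1.42.0 and limma 3.58.1, other scalings and filters, FPKM with pseudocounts of 1 and 0.1, removed length or GC trends (the latter added after the data were seen), a replicate block and omitted libraries. Fold changes on the log2(FPKM + pseudocount) scale understate the change of low genes.

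The 10 genes and the lists were chosen with earlier results of these data known. Named genes are Capns1, the 10 genes, up to 3 called genes of smallest adjusted p per list (or the 2 of smallest p), 4 macrophage markers and the 2 most abundant stromal markers. Other called list members are named after their values were seen. Some called list members are counted but not reported by name here. Of the 10 genes, at most 0.0518% of 32-base transcript words occur in other genes. Marker lists of other cell types were sparse or mixed. Neutrophil and precursor genes had 2 of 9 tested higher in KO (S100a8 and S100a9) and 3 lower (Csf3r, Mpo and Elane). This is 55.6% called, where 14.6% of all tested genes were. Erythroid and megakaryocyte genes had 1 of 3 higher (Pf4), where 8.44% of all tested genes were higher. The single tested dendritic, B cell and mast cell genes were not called. T cell markers reached at most 0.0865 CPM in sum.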

Additional observations from a re-analysis of the deposited data

How the results depend on the processing

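The calls of Fosl1, Myc and Capns1 held under all 18 alternatives, and no alternative turned the sign of Fos, Atf3, Egr1, Jun or Junb. The number of the 10 genes called higher was 2 or 3, and 5 without both WT replicate 3 and KO replicate 2. The number called lower was 0 with RLE scaling, no scaling factor or any of the 3 limma-trend settings on FPKM (Fos, adjusted p = 0.0530, 0.0595, 0.172, 0.149 and 0.0747) and 0 to 1 when 1 library was left out. Over all genes, calls higher in KO numbered 704 to 1039 when 1 library was left out and 1681 without both libraries that stood apart. Calls lower in KO numbered 468 and 482 with limma-trend on log2(FPKM + 1) and log2(FPKM + 0.1), 359 to 742 when 1 library was left out, and 1505 without both. The log2 ratio of summed Jun FPKM was 0.097, 0.033 to 0.18 when 1 library was left out, and 0.25 without both. That of summed Fos FPKM was 0.12, and -0.0081 to 0.22 when 1 library was left out. Fosl2 and Jund, which were not called, ranged from -0.020 to 0.24 and from -0.063 to 0.23 with 1 library out and were 0.35 and 0.36 without both. Jund was -0.18 with a GC trend removed. Adgre1 was 0.038 to 0.26 with 1 library out and -0.026 without both. Where a value changed, the cause was not tested. The labels do not say whether replicate numbers pair the samples. Same-numbered deviations correlated at -0.0975, 0.230 and 0.180, and 3 of 6 libraries correlated best with their own number. So few libraries cannot settle whether a number was shared. With a replicate block, 1164 genes were called lower and 2 of the 10 genes (Fos and Atf3, adjusted p = 0.0128 and 0.0328). Depth limits the genes with few counts: Fosl1 had 112 to 156 counts per WT library, and Fosb did not pass the count filter of the main test.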
